A study of Mus musculus with 3 samples.

Results

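The genes examined here maintain the genome during and after DNA replication. They comprise the BRCA complexes and other factors of homologous recombination, the Fanconi anaemia pathway, which repairs crosslinks between the strands, and the kinases and mediators of the DNA damage checkpoint. The group is 30 genes fixed by name, and a gene counted as measured when at least 1 probe set of the array named it alone. By that rule 29 of the 30 were measured, out of 18193 genes in all, through 65 probe sets, and Xrcc2 is not analysed here. RNA was taken from NIH3T3 cells, an immortalized fibroblast line of NIH/Swiss mouse embryos grown in 10% calf serum. Each of 3 conditions was measured on 1 Affymetrix mouse genome array: untransduced control cells, cells stably overexpressing wild-type mouse YAP, and cells stably overexpressing mtYAP. The last carries the substitution S112A, which removes the serine that LATS kinases of the Hippo pathway phosphorylate. The overexpressing lines were infected with retroviral vectors and kept as puromycin-resistant survivors, whereas the label of the control calls it untransduced. The methods also describe virus made with an empty vector, without saying whether the control array had it. Infection and selection therefore cannot be told apart from YAP in the differences from control as labelled. A free-text note of the control array speaks of an embryonic stem cell experiment, while its title, cell line and cell type give NIH3T3 fibroblasts.

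Homologous recombination copies an intact sister chromatid to mend a double-strand break or a broken replication fork. BRCA1 acts early, and PALB2 and BRCA2 act on ends that have been resected to single-stranded DNA. Strand exchange with the intact copy follows. The Fanconi proteins recognise crosslinks at stalled forks and hand them over to recombination, and the ATR and ATM kinases, with CHK1 and CHK2 below them, hold the cell cycle while repair proceeds. Many of these genes are transcribed mainly in dividing cells, from the G1/S transition onward, in part through E2F factors.

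Levels are log2 values from robust multiarray analysis (RMA), averaged over the probe sets of a gene, and a step of 1 on that scale doubles the level. A level of at least 6 was taken as clearly measured. Where 3 levels stand together without labels, they belong to control, mtYAP and YAP in that order, and a pair of differences from control belongs to mtYAP and then YAP. No replicates exist, so no value has an error and no difference could be tested. Several arraywide facts touch every value below. The median levels of the arrays lay between 4.56 and 4.60. Yap1 itself read 8.57, 7.89 and 8.06, lower in the overexpressing lines, and no source used here says whether its probe sets read the coding part that the vectors carry, so it checks neither label. All 8 fibroblast markers reached a level of 6, and none of 17 measured markers of epithelium, endothelium, leukocytes and embryonic stem cells did. Of the fibroblast markers, Pdgfrb, Pdgfra and Thy1 lay below −1 in mtYAP, at −2.62, −2.41 and −1.67, and Pdgfrb in YAP, at −1.10. The study ran its arrays to follow growth at confluence, and neither the labels nor the methods give the density of these cultures.

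DNA repair genes stood mostly above control in cells overexpressing mtYAP, and less far above it in cells overexpressing YAP. In mtYAP, 24 of the 29 lay above control (51.8% of all genes did) and 5 (Nbn, Atm, Fancm, Rad50 and Bard1) below, with a median log2 difference of 0.72, where the median over all genes was 0.02. Of them 7 exceeded a difference of 1 and none lay below −1. Over all genes, 3.77% exceeded 1 and 4.06% lay below −1. The 7 were Rad51ap1, Rad18, Palb2, Blm, Chek1, Tipin and Msh6. In YAP, 19 lay above control (48.0% of all genes did) and 10 below, the median was 0.30 where that over all genes was −0.0033, and none passed 1 or −1 (1.36% and 1.26% of all genes). A lower limit was also applied to this line, as the study did. Above a log2 difference of 0.72, there were 3 members, Palb2, Rad51ap1 and Msh6, where 2.95% of all genes were. The same 3 were above a log2 difference of 0.65, where 3.74% of all genes were, with Brca2 at 0.65 and Rad51c at 0.645. These differences share the control array.

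**Figure D1:**
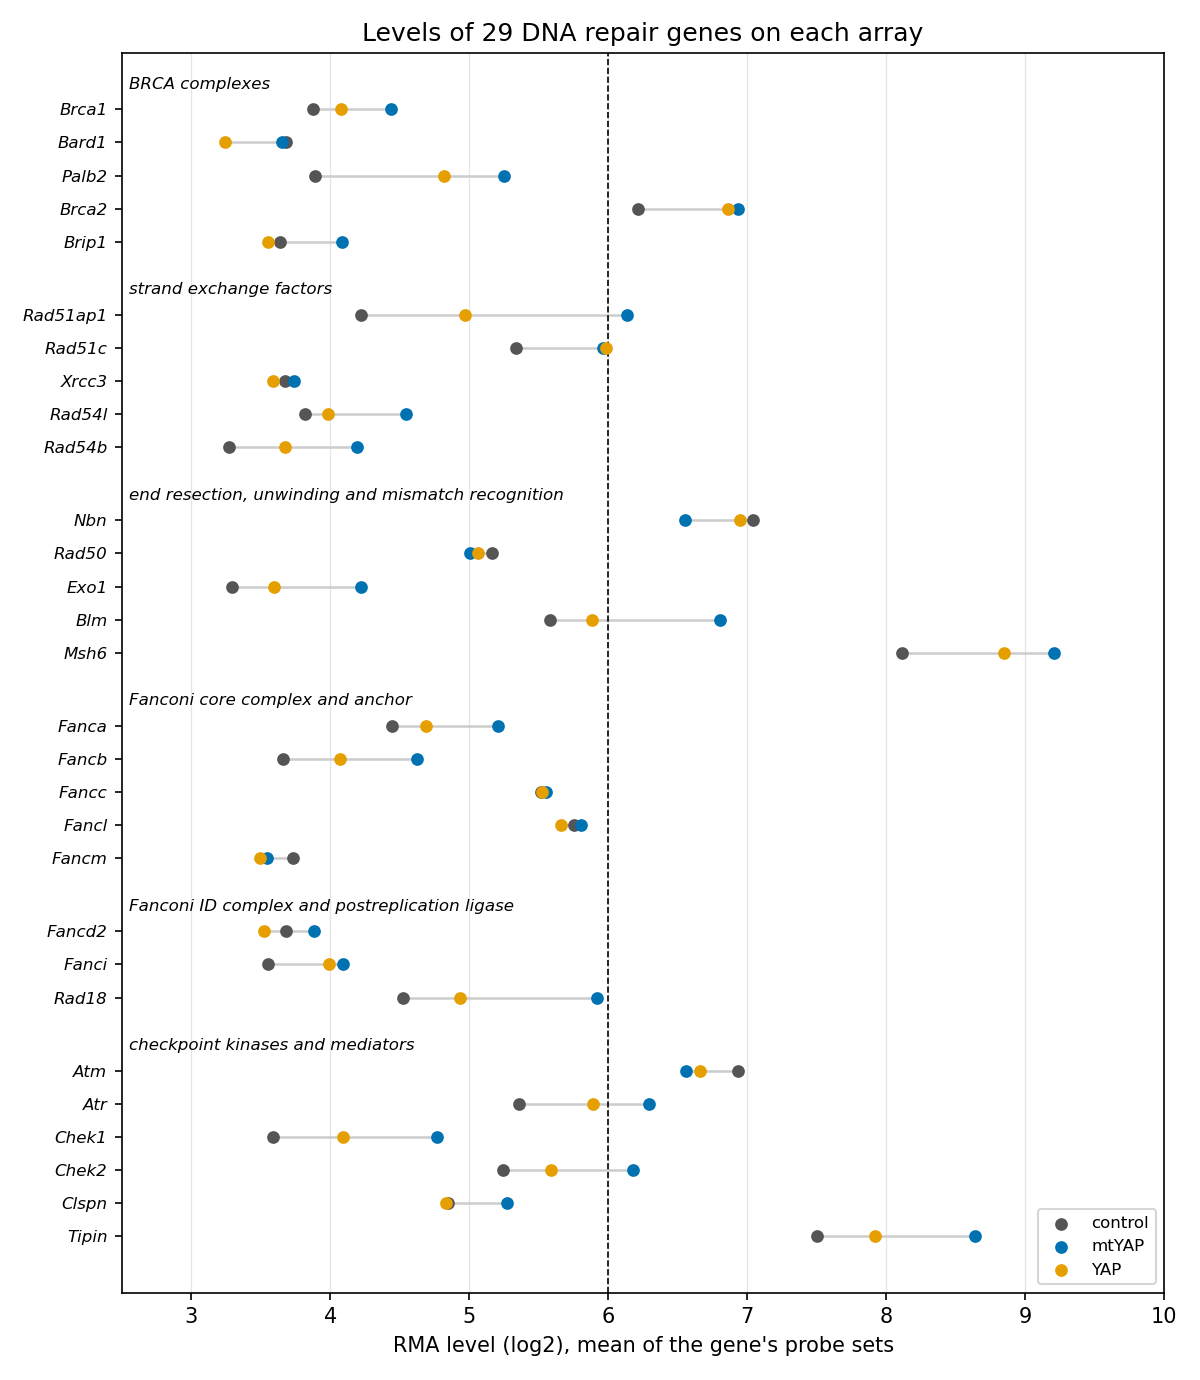
RMA level on the log2 scale (horizontal axis) of the 29 measured genes, ordered by role, with 1 point for each array (grey control, blue mtYAP, orange YAP) and a dashed line at the level of 6. Most genes lie left of the line, and for most of them the blue point lies furthest right. In Bard1, Nbn, Rad50, Fancm and Atm, control lies furthest right.

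Low levels limit these differences. By the mean of their probe sets, 9 of the 29 genes reached 6 on at least 1 array, as 7129 of all 18193 genes did. On the mtYAP array alone, 4 of the 9 did (Rad51ap1, Blm, Atr and Chek2), and 20 of the 29 stayed under 6 on all 3. Of those 20, 10 had at least 1 probe set that reached 6, as Fancl and Rad50 did, and 10 had none. Split by the mean over the 3 arrays, 6 genes (Brca2, Nbn, Blm, Msh6, Atm and Tipin) had a level of 6 or more, of which 3 exceeded 1 in mtYAP, and 6.88% of all genes at that mean level did. Of the 23 below it 4 exceeded 1, as 2.05% of all such genes did. Singly, 19 of the 65 probe sets exceeded 1 (4.61% of all probe sets of 1 gene), and so did 5 of the 14 with a mean level of 6 or more (8.01% of such probe sets). Averaging also joins probe sets that read differently. Among the 19 genes with several probe sets, those of 5 genes (Rad51ap1, Rad54l, Exo1, Chek1 and Clspn) spread over more than 1 in mtYAP, which 11.0% of all genes with several probe sets did.

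The upstream sequences of 4 of these genes are shown because they span the range of differences: Rad51ap1, Blm and Msh6 had the largest in mtYAP among the genes that have a window and reached 6 on at least 1 array, the first pair in mtYAP alone, and Atm had the lowest. Each RefSeq window (GRCm38.p6) runs 5′ to 3′ on the strand of the gene, from 250 bases before the start of the transcript to 50 after it. Capitals mark matches, on either strand, to the E2F site (TTTCCCGC, TTTCGCGC, TTTGCCGC or TTTGGCGC), the CHR element of late cell cycle genes (TTTGAA or TTCGAA), the CCAAT box (CCAAT, read as ATTGG from the other strand), the E-box (CACGTG) and the TEAD site (GGAATG).
Rad51ap1, chr6:126939538-126939837, minus strand: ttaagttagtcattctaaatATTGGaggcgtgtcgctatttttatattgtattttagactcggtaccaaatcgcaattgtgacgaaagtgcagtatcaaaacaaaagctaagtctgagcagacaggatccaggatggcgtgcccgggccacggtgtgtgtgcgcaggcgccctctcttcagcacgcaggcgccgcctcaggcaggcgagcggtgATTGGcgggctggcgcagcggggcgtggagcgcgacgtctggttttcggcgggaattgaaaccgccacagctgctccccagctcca
Blm, chr7:80534949-80535248, minus strand: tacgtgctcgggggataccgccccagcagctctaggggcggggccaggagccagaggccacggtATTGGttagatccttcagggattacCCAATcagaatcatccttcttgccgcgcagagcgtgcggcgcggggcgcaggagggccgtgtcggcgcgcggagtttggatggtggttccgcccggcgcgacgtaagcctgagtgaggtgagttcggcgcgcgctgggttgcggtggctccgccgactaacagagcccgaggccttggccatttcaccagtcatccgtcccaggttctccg
Msh6, chr17:87974800-87975099, plus strand: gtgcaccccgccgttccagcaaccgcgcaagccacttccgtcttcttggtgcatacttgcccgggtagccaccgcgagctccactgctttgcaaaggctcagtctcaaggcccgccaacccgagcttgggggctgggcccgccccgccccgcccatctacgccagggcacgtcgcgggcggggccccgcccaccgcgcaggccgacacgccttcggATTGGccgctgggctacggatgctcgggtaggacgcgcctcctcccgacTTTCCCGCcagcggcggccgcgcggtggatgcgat
Atm, chr9:53536622-53536921, minus strand: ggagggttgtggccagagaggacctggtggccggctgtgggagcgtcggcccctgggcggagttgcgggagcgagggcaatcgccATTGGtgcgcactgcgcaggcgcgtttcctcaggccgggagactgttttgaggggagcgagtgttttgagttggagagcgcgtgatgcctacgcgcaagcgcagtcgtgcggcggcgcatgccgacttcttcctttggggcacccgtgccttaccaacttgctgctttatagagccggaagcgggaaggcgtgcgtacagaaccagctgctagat

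A CCAAT box was found in all 4 windows, that of Atm included, and an E2F site in that of Msh6, 16 bases after the start. No CHR element, E-box or TEAD site was found in any of the 4. Of the 30 listed genes 23 have a window, 26 windows in all; Xrcc2, Rad54b, Nbn, Rad50, Exo1, Fancd2 and Tipin have none. An E2F site was in 7 of the 26 windows (26.9%), against 2.26% of all 32851 windows of the table. By gene these were 6 of 23, and among the DNA replication genes taken up below 14 of the 27 with a window held the site. The 6 genes were Bard1, Brca2, Chek2, Clspn, Msh6 and Rad51c. Their differences in mtYAP ran from −0.03 in Bard1 to 1.10 in Msh6, and 1 of the 6 genes above 1 that have a window, Msh6, held the site. CCAAT boxes were in 16 windows (61.5%, against 37.4% of all windows), CHR elements in 2 (7.69% against 19.2%) and TEAD sites in 4 (15.4% against 14.7%), the last in Fancc, Fancm and Rad18. The E-box was in none of the 26, and in 7.15% of all windows. The table also holds windows of genes of every other kind, so the shares describe letters and no binding.

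Within the BRCA complexes, Palb2 stood furthest from control and Bard1 nearest to it in mtYAP. Brca1 encodes the ubiquitin ligase that pairs with BARD1 and directs breaks toward recombination. Its mean level stood at 3.88 in control cells, at 4.44 with mtYAP and at 4.07 with YAP, differences of 0.56 and 0.20. Its 4 probe sets read unequally. The brightest, meaning here and below the one with the highest mean level over the arrays (1424629_at), went from 5.07 in control to 6.20 in mtYAP and 5.37 in YAP, a difference of 1.13 in mtYAP and 0.30 in YAP, while the other 3 stayed under 5 on every array. Bard1, its partner, read 3.68, 3.65 and 3.24, lowest in YAP and nearly level between control and mtYAP. Palb2, which bridges BRCA1 and BRCA2, read 3.89, 5.25 and 4.82. Both overexpressing lines stood clear of control here, by 1.36 (2.57-fold) and 0.93 (1.91-fold), on a probe set that stayed under 6 throughout. Brca2, which binds PALB2 and single-stranded DNA, was clearly measured at 6.21, 6.93 and 6.86. Its differences of 0.72 and 0.65 were close to each other, and mtYAP exceeded YAP by 0.07. Brip1, the helicase also known as FANCJ, read 3.64, 4.08 and 3.55, above control only in mtYAP.

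Among the factors of strand exchange, Rad51ap1 had the largest difference of all 29 genes in mtYAP. It encodes a DNA-binding protein that stimulates strand invasion. Its mean level went from 4.22 in control to 6.14 with mtYAP and 4.97 with YAP, which is 1.92 (3.78-fold) above control in mtYAP and 0.75 (1.68-fold) in YAP. All 4 probe sets read highest in mtYAP and lowest in control. The brightest, 1417938_at, went from 4.99 to 7.39 in mtYAP and 5.97 in YAP, and the one that moved least, 1417940_s_at, from 4.73 to 5.53 and 4.86. As a group, the other factors of strand exchange stood closer to control. Rad51c, which acts in strand exchange, read 5.34 in control, 5.96 in mtYAP and 5.98 in YAP, so that mtYAP and YAP were 0.02 apart. Xrcc3, with which it pairs, read 3.68, 3.74 and 3.59, within 0.1 of control in either line. Rad54l, a motor protein that drives strand exchange, read 3.82, 4.55 and 3.98 as a mean. In its brightest probe set the levels were 4.96, 6.42 and 5.57, with differences of 1.46 and 0.61, while another lay 0.10 below control in mtYAP. Rad54b, its relative, read 3.27, 4.19 and 3.67, highest in mtYAP, with differences of 0.92 and 0.40 at levels under 5.

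Genes of end processing divided into 2 that stood below control and 3 that stood above it. Nbn and Rad50 encode subunits of the complex that first binds broken ends. Nbn was clearly measured at 7.04 in control, 6.55 in mtYAP and 6.95 in YAP, a difference of −0.49 in mtYAP, the lowest of the 29 genes, and −0.09 in YAP. Rad50 read 5.17, 5.01 and 5.06 as a mean, and 7.54, 7.70 and 7.60 in its brighter probe set, where the overexpressing lines lay slightly above control. Neither gene had a higher value in mtYAP than in YAP by its mean level. Exo1, the exonuclease that resects ends and also acts in mismatch repair, read 3.29, 4.22 and 3.59. Its brightest probe set (1418026_at) went from 4.00 in control to 5.93 in mtYAP and 4.63 in YAP, differences of 1.93 and 0.63, whereas its dimmest stayed between 2.12 and 2.30. Blm, the Bloom syndrome helicase that dissolves recombination intermediates, read 5.58, 6.80 and 5.88. Control and YAP lay within 0.30 of each other, and mtYAP stood apart at 1.22 (2.33-fold). Msh6, a subunit of the MutSα mismatch sensor whose upstream window holds an E2F site, was clearly measured on every array at 8.11, 9.21 and 8.85. It stood 1.10 (2.14-fold) above control in mtYAP and 0.74 (1.67-fold) in YAP.

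**Figure D2:**
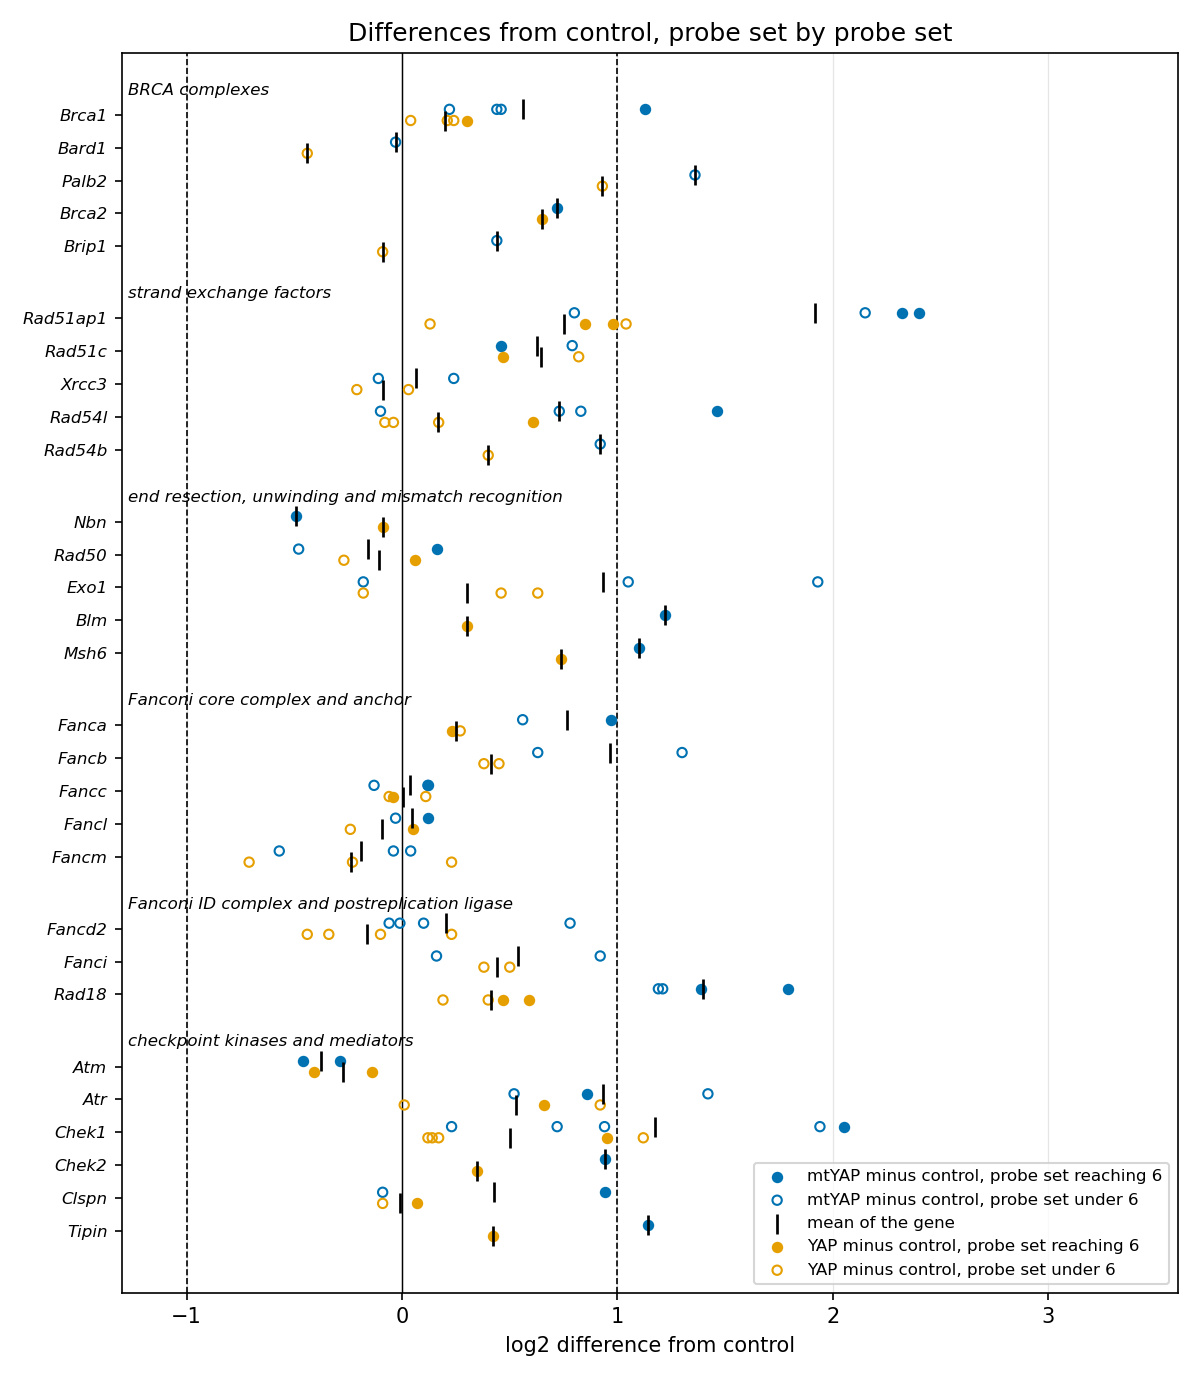
The 65 probe sets, placed by their log2 difference from control (horizontal axis), blue for mtYAP and orange for YAP, filled where the probe set reached 6 on at least 1 array and open where it did not. Black bars are the means per gene and dashed lines mark −1 and 1. The probe sets of Rad18 lie close together above 1 in mtYAP, while those of Chek1, Exo1 and Rad54l spread widely.

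Of the Fanconi core complex, 2 genes stood above control in mtYAP and 3 beside it. This complex attaches ubiquitin to FANCD2 and FANCI, FANCL being its ligase subunit. Fanca read 4.44, 5.21 and 4.69 as a mean, and 5.41, 6.38 and 5.64 in the brighter of its probe sets. Fancb, encoded on the X chromosome, read 3.66, 4.62 and 4.07, a difference of 0.97 in mtYAP, just under the limit of 1, and 0.42 in YAP. Fancc read 5.52, 5.55 and 5.52, and Fancl 5.76, 5.80 and 5.66, ranging over 0.14 or less across the arrays. The brighter probe set of Fancl, at 8.54, 8.66 and 8.59, spread equally little on a clearly measured level. Fancm, the translocase that anchors the complex to DNA, read 3.73, 3.54 and 3.49, lower in either line than in control. In its brightest probe set the levels were 5.20, 4.63 and 4.49, differences of −0.57 and −0.71, while the others ran from 2.73 to 3.26. Their 5 differences had medians of 0.05 and 0.0033.

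The substrates of that ligase stayed under 6 in every probe set. Fancd2 read 3.68, 3.89 and 3.52 as a mean of 4 probe sets, and none of them reached 6. Its brightest went from 4.77 in control to 5.55 in mtYAP and 5.0 in YAP. Fanci, its partner, read 3.55, 4.09 and 3.99, above control by 0.54 and 0.44. Its brighter probe set went from 4.68 to 5.6 in mtYAP and 5.06 in YAP, differences of 0.92 and 0.38, and the other ran the other way round, from 2.42 to 2.58 and 2.92. Rad18, a ubiquitin ligase that modifies PCNA at stalled forks, differed from these. It read 4.52, 5.92 and 4.94, and its difference of 1.40 (2.63-fold) in mtYAP was shared by all 4 probe sets, which ran from 1.19 to 1.79. In YAP the difference was 0.41 (1.33-fold), and 0.98 separated the lines.

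Checkpoint genes stood above control in mtYAP except for Atm. Atm, the kinase that answers double-strand breaks, was clearly measured at 6.94 in control, 6.56 in mtYAP and 6.66 in YAP. Its differences were −0.38 and −0.28, and both probe sets lay below control in either line. Atr, the kinase that answers stalled forks, read 5.36, 6.29 and 5.89, differences of 0.93 and 0.53 in the other direction. In its brightest probe set it read 6.77, 7.63 and 7.43. Chek1 encodes CHK1, the kinase that ATR activates. Its mean level was 3.59, 4.77 and 4.09, with differences of 1.18 (2.26-fold) and 0.50 (1.41-fold). The 5 probe sets ran from 0.23 to 2.05 in mtYAP, and the brightest, 1449708_s_at, went from 5.18 in control to 7.23 in mtYAP and 6.13 in YAP. Chek2, the kinase that ATM activates, read 5.24, 6.18 and 5.59, highest in mtYAP and 0.94 above control there.

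Clspn and Tipin act at the fork itself. Clspn encodes claspin, which presents CHK1 to ATR, and read 4.85 in control, 5.27 in mtYAP and 4.84 in YAP. Of its 2 probe sets the brighter went from 5.59 to 6.53 in mtYAP and 5.66 in YAP, and the other lay 0.09 below control in either line. Tipin, a component of the fork protection complex, was clearly measured at 7.50, 8.64 and 7.92. It stood 1.14 (2.20-fold) above control in mtYAP and 0.42 (1.34-fold) in YAP. Timeless, with which it pairs and which is not one of the 30 genes, read 5.08, 6.57 and 5.51, differences of 1.49 and 0.43.

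The overexpressing lines can also be compared without the control array. Of the 29 genes, 25 read higher in mtYAP than in YAP, as did 53.3% of all genes, and the median difference was 0.41 where that over all genes was 0.025. Rad51ap1 was the gene above 1, at 1.17, and 0.748% of all genes were above 1. Rad18 lay just under the limit at 0.98 and Blm at 0.92. None of the 29 lay below −1, as 1.42% of all genes did. The 4 genes that were not higher in mtYAP were Nbn at −0.40, Atm at −0.10, Rad50 at −0.06 and Rad51c at −0.02. Wild-type and mutant YAP differ in a single residue, and Palb2, Brca2 and Msh6, the genes furthest above control in YAP together with Rad51ap1 and Rad51c, differed between the lines by 0.43, 0.07 and 0.36. With 1 array for each line, an interval for these differences cannot be given.

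**Figure D3:**
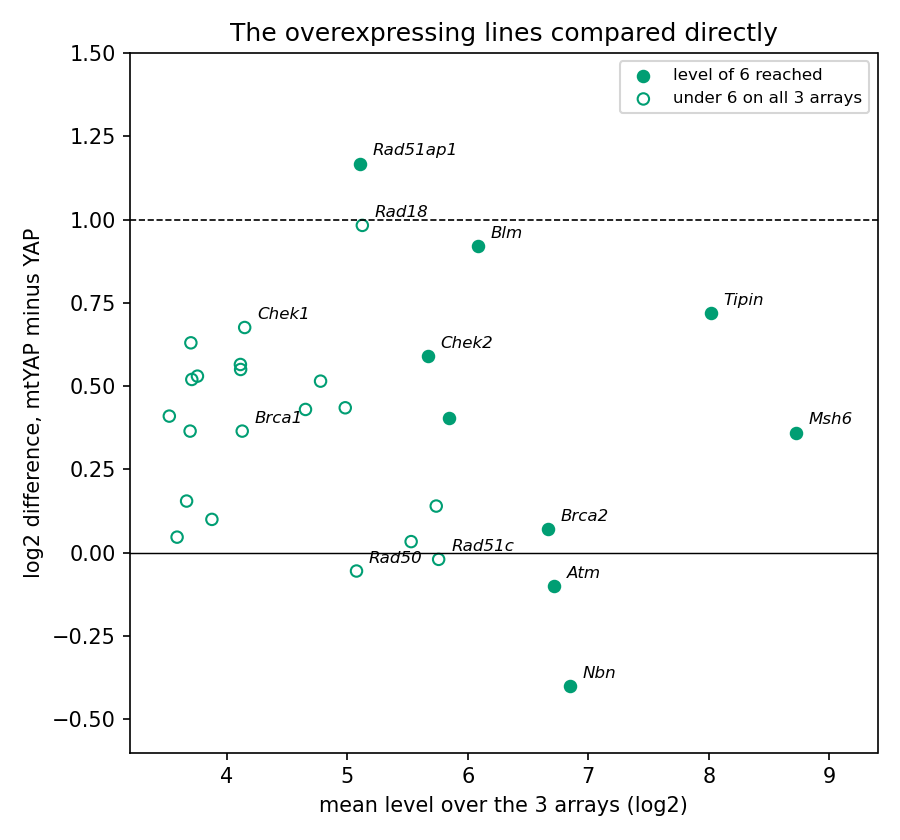
Log2 difference of mtYAP from YAP (vertical axis) against the mean level over the 3 arrays (horizontal axis) for each of the 29 genes, filled where a level of 6 was reached. The dashed line marks 1. All but 4 genes lie above 0, and Rad51ap1 lies above the dashed line.

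Other genes of the same pathways, from lists of general knowledge, had medians nearer to control than the 29. These lists and the 29 were chosen with earlier results of these data known. How far that choice shapes the contrast was not tested. Of 29 other recombination genes, 4 exceeded 1 in mtYAP and none lay below −1. Their differences had medians of 0.18 and 0.12. The 4 were Mms22l, which acts on forks together with TONSL, at 1.47 in mtYAP and 0.41 in YAP, Fignl1, an ATPase, at 1.22 and 0.57, and the single-strand binding subunits Rpa2 at 1.15 and 0.21 and Rpa1 at 1.14 and 0.57. None of 14 other Fanconi genes passed 1 or −1 in either line, and the medians were 0.08 and 0.105. Usp1, which removes ubiquitin from FANCD2, stood at 0.95 and 0.57, and Ube2t, the conjugating enzyme that works with FANCL, at 0.82 and 0.37. Faap24, the partner of FANCM, stood at 0.84 and 0.28.

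Of 22 other checkpoint genes, 5 exceeded 1 in mtYAP and none lay below −1. Their median was 0.49 in mtYAP, and 0.29 in YAP. Beside Timeless, Cdc25c, a phosphatase that activates CDK1, stood at 1.34 and 0.85, Rif1, which restrains end resection, at 1.22 and 0.72, Cdc25b, a relative of Cdc25c, at 1.06 and 0.75, and the mitotic kinase Plk1 at 1.03 and 0.90. Mismatch repair genes other than Msh6 showed little, since none of 4 passed 1 in either line, and Mlh3 stood at 0.23 in mtYAP and 0.74 in YAP. Of 9 end joining genes, which rejoin breaks without a template, none exceeded 1 in mtYAP, and the median was −0.14. Polm, a polymerase of that pathway, went from 7.0 in control to 5.30 in mtYAP and 6.39 in YAP, a difference of −1.70 in mtYAP, while Xrcc6, the Ku70 subunit, stood at 0.94. Of 25 excision repair genes, Ung, which removes uracil from DNA, stood at 1.73 and 0.56, Neil3, a glycosylase, at 1.35 and 0.51. The others lay under 1, and the medians were 0.03 and 0.04.

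DNA replication genes and proliferation markers also stood above control. Of 35 replication genes, 17 exceeded 1 in mtYAP and none lay below control. The median of the list stood at 0.995 in mtYAP, and at 0.36 in YAP. The 26 that reached a level of 6 make up a larger share of that list than the 9 of 29 do among the repair genes, so the medians rest on different levels. Mcm2, which unwinds DNA at the fork as part of the MCM complex, stood at 2.46 and 0.995, and Pole, the leading-strand polymerase, at 1.88 and 0.77. Among 11 proliferation markers, 4 (Rrm2, Cdk1, Ccna2 and Aurka) exceeded 1 in mtYAP and 1 (Ccnb2) in YAP, and 9 of the 11 lay above control in mtYAP, with medians of 0.98 and 0.45. Rrm2, a subunit of ribonucleotide reductase, read 6.88 in control, 8.59 in mtYAP and 7.30 in YAP. Cdk1, the mitotic kinase, read 7.50, 9.00 and 7.95, and Mki67, the Ki-67 antigen, 8.06, 8.70 and 8.76. In bulk RNA, more dividing cells and more of a transcript per cell cannot be told apart. The arrays do not measure the share of dividing cells. By staining at confluence, the study reports more cells positive for phospho-histone H3 in both overexpressing lines than in control. The part of dividing cells in the differences of the repair genes was not tested.

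**Figure D4:**
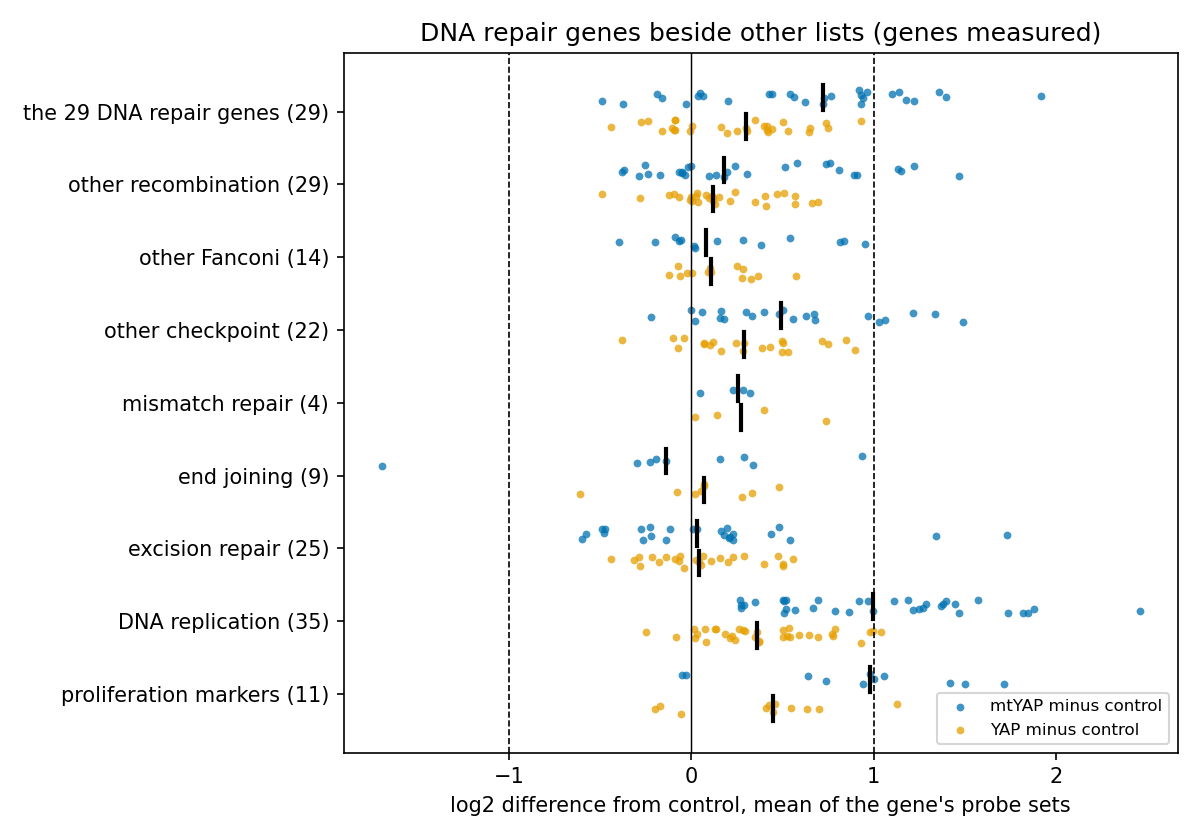
Genes measured in 9 lists, placed by their log2 difference from control (horizontal axis), blue for mtYAP and orange for YAP, with black bars at the medians and dashed lines at −1 and 1. The spread of points within a list along the vertical axis has no meaning. The medians of the 29 DNA repair genes are 0.72 and 0.30, between those of the excision repair list (0.03 and 0.04) and the replication list (0.995 and 0.36).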

How the data were processed

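Gene expression was measured on 3 arrays, 1 for each condition. The deposited values are log2 levels per probe set, which the authors made by background subtraction and RMA normalization in R. RMA and the affy package are named in the submitters' processing notes, with no versions given in the sources used here. Sequencing depth has no counterpart on arrays, whose number limits the precision. Of 45037 probe sets, the platform annotation gives 34945 a single gene symbol, 932 several and 9160 none. The first kind was averaged per gene, which gave 18193 genes, and differences between arrays were rounded to 6 decimals before counting. No test was run. The 30 genes, the other lists (3 of whose genes were matched by gene identifier in the RefSeq table of GRCm38.p6) and the limits were chosen with earlier results of these data known. Named are all members, Yap1, at most 4 genes per other list with the largest difference in mtYAP, and Plk1, proliferation and fibroblast markers, which were chosen after their values were seen, and promoters by the rule stated beside them. Joining and counting were tested on simulated data. The study words its limit for YAP as 1.65-fold (log2 0.72). Its list of genes raised in both lines holds log2 values for YAP as low as 0.65, so both limits are given. Alternatives covered probe set choice, the level, the median, a loess with a span of 0.3 and the limits. Python 3.11.15 with numpy 2.4.6, pandas 2.3.3, statsmodels 0.14.6 and matplotlib 3.10.9 was used.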

Additional observations from a re-analysis of the deposited data

Results flagged for a closer look

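Of the 29 genes, 5 lay above control in mtYAP and below it in YAP, so that the lines stood on opposite sides of the single control array. The share of all genes that did so was not counted, so these 5 have no background to be read against. The difference of mtYAP from YAP was 0.53 for Brip1, 0.435 for Clspn, 0.365 for Fancd2, 0.155 for Xrcc3 and 0.14 for Fancl, and was not tested. Clspn lay 0.01 below control in YAP, and the other 4 by between 0.09 and 0.16. With the probe set of highest mean level, Brip1 alone of the 5 kept this pattern. Without the _s, _x and _a probe sets 4 of the 5 did, all but Xrcc3. A probe set that names Rad54b together with Fsbp, and was therefore left out of the values above, read 5.27 in control, 6.14 in mtYAP and 5.15 in YAP, a difference of 0.87 in mtYAP. A second such probe set read 2.18, 2.35 and 2.08, a difference of 0.17. With both kept, the difference of Rad54b became 0.65 in mtYAP and 0.06 in YAP, in place of 0.92 and 0.40.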

How the results depend on the processing

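No paired analysis was possible because each condition has 1 array. Above 1 in mtYAP were 7 of 29 genes (3.77% of all genes). This became 11 of 29 with the probe set of highest mean level (4.84% of all genes), 12 when any probe set could pass (5.98%), 4 of the 9 genes that reach 6 on at least 1 array (7.66%), a filter that 4 of the 9 pass in mtYAP alone, and 3 of the 6 with a mean level of at least 6 (6.88%). The median of 0.72 became 0.92 with the highest probe set, and 0.94 with the genes that reach 6 or with only the probe sets that reach 6. All 22 of these probe sets reach 6 in mtYAP, but 11 do in control and 12 in YAP. Many thus pass that filter in mtYAP alone, which limits what its values show. The mean level and the probe sets that reach 6 were chosen as alternatives after seeing the data. Blm, Msh6 and Tipin were above 1 in mtYAP under every setting, and Rad51ap1, Rad18 and Palb2 wherever their levels kept them in. Chek1 dropped out without the _s, _x and _a probe sets. In YAP, none above 1 (1.36% of all genes) became 1 without those probe sets (1.3%) and 2 when any could pass (2.4%). The 3 above 0.65 became 5 with the highest probe set and 1 with a mean level of at least 6. For that limit the share of all genes was not counted under these settings. Directly between the lines, 1 above 1 (0.748% of all genes) became 3 with the highest probe set (0.989%). The count was 2 without the _s, _x and _a probe sets (0.699%) and 2 after the loess (0.77%). It was 3 with only probe sets that reach 6 (about 2%) and 0 with a mean level of at least 6 (0.987%). The other 69 of 85 recomputed counts and medians stayed within 1.5 times or 0.2 of the values given. Among the 69, the median difference of mtYAP from YAP went from 0.41 to 0.215 in the 6 genes with a mean level of at least 6. Over all genes at that mean level it was −0.04. No sign of a median or of a difference beyond 1 turned. By their means 20 of the 29 genes stayed under 6, as 11064 of all 18193 genes did, and 10 of the 29 had no probe set that reached it.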
